A study of Bos taurus with 15 samples.

Results

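In bovine embryos 120 genes had a high signal in the oocyte and a morula mean at least 4-fold lower. In the 2-cell, 4-cell, 8-cell and 16-cell arrays they were no more than 2-fold below the oocyte mean. These folds come from log2(signal + 16), averaged over the arrays of a stage, and are not ratios of mean signals. The 120 genes are called kept transcripts here. A fertilised mammalian egg lives at first on messenger RNA and protein laid down in the oocyte, and these stored transcripts are removed in stages while the embryo's own genome is switched on. In cattle the main wave of embryonic transcription is known to begin at about the 8-cell to 16-cell stage. Some stored transcripts are already destroyed during the first cleavages, and others persist until the embryonic genome is active. The arrays do not tell stored RNA from newly made RNA of the same gene.

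The genes were chosen from 9155 named genes, each represented by the probe set with the highest mean. All choices were made on the log2 of the signal plus 16. The oocyte mean had to be at least 9 on that scale, a signal of about 496. Each of the 2-cell, 4-cell, 8-cell and 16-cell arrays could lie no more than 1 (2-fold) below the oocyte mean, and the morula mean had to lie at least 2 (4-fold) below it. No upper limit was set at these cleavage arrays, where 16, 17, 17 and 7 of the chosen genes were more than 1 above the oocyte mean. Of 2678 genes with an oocyte mean of at least 9, 554 had a morula mean at least 2 lower, and 120 of these met the limit at every cleavage array. The other 434 fell below the limit on 1 or more cleavage arrays and are called earlier falls here. Since the oocyte, 2-cell to 16-cell and morula arrays chose the genes, the levels on those arrays describe the 120 genes and test nothing. The spread among the oocyte and among the morula arrays does enter the errors of the test below. The 1-cell and blastocyst arrays entered only the mean that picked 1 probe set per gene.

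Bovine (Bos taurus) oocytes and embryos made by fertilisation in vitro were collected at 8 stages, with no treatment or genetic change named in the labels. Oocytes from ovarian follicles were matured in culture for 20 hours before fertilisation, and the labels do not say whether the oocyte arrays hold oocytes from before or after that step, how many oocytes or embryos each array pooled, or from how many animals. There were 3 oocyte, 3 morula and 3 blastocyst arrays, 2 arrays of 1-cell embryos (zygotes before division), and 1 array each of 2-cell, 4-cell, 8-cell and 16-cell embryos. RNA was amplified in 3 rounds and hybridised to Affymetrix Bovine Genome arrays, and the deposited signal is an intensity on a linear scale. The replicates are called biological, but separate collections are not described, so a p-value covers no more than the spread among these 15 arrays, which may be technical. A signal is a share of the amplified RNA of whole embryos, and fewer cells holding a transcript cannot be told apart from less of it per cell.

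The arrays were not equally close to each other. Morula 3 differed from morula 1 and 2 at least 4-fold at 41 and 33 of the 120 genes, whereas morula 1 and 2 differed that far at 1. Oocyte 3 differed from oocyte 1 and 2 at 13 and 12 of the 120 genes, and blastocyst 3 from blastocyst 1 and 2 at 24 and 26. Poly(A) control transcripts were bright on oocyte 2 and 3, 1-cell 2, morula 3, blastocyst 3 and the 4 single arrays, and near background on the other 6. The 10 measured oocyte markers of a fixed list, MOS among them, summed to signals of 36778 to 64315 on the arrays from oocyte to 8-cell, 13827 on the 16-cell array and 1267 to 4276 on the morula arrays. The 16-cell array also carried some stromal transcripts. The 12 stromal markers summed to 7379 there, against 480.1 to 1509 on the earlier arrays and 2652 to 5437 on the morula arrays. Their sums on the blastocyst arrays were 5919, 6327 and 1206. On the 16-cell array 5 of the 12 were at 500 or more and 4 were under 50. VIM and COL1A2 were at 1959 and 2432 while COL1A1 and COL3A1 were at 8.43 and 25.9. The 17 measured cumulus and granulosa markers summed to 12497 on that array, within the 6087 to 13806 of the earlier arrays. CYP19A1 and FSHR were near background on it (24.96 and 1.44), as on the earlier arrays. FST, HSD3B1, CD44 and HAS2 were at 945, 780.0, 571 and 4710, above their highest earlier signals of 124, 60.8, 175 and 2179. INHBA was slightly above its own, at 314 against 290. STAR, VCAN and PTX3 were at 537, 42.9 and 12.3, below their lowest earlier signals of 1401, 54.3 and 16.3. HAS2 was higher still in morulae, at 8622 to 9257, and HSD3B1 in blastocysts, at 1458 to 3867. The part of these transcripts in the 16-cell values below was not tested.

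As a group, the 120 transcripts held a level close to that of the oocyte through 4 cell divisions and were far lower in the morula. Their median difference from the oocyte mean was 0.24, 0.19, 0.12 and -0.23 on the log2 scale in the 2-cell, 4-cell, 8-cell and 16-cell arrays, and -2.89 in the morula mean, a 7.42-fold lower level. The 16-cell value lay inside the range of the oocyte arrays for 68 genes, above every oocyte array for 13 and below every oocyte array for 39. It was lower than the 8-cell value for 91 genes. From the 16-cell array to the morula mean the median difference was -2.91, from -1.07 to -7.18 over the genes. Every morula array was below every 2-cell to 16-cell array for 119 of the 120 genes, which the choice of genes favours. Among the 434 earlier falls the count was 180, a difference that the limit at the cleavage arrays also favours.

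The earlier falls reached a similar level in the morula by another course. Their medians were -0.45, -0.34, -0.98 and -2.20 in the 2-cell, 4-cell, 8-cell and 16-cell arrays and -3.16 in the morula mean. Of the 434, 142 were more than 1 below the oocyte mean at the 2-cell array, 49 first at the 4-cell, 93 first at the 8-cell and 150 first at the 16-cell array. The limit at the cleavage arrays fixes this difference between the sets, so it is no finding, and single arrays have no replicate to show their error.

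**Figure D1:**
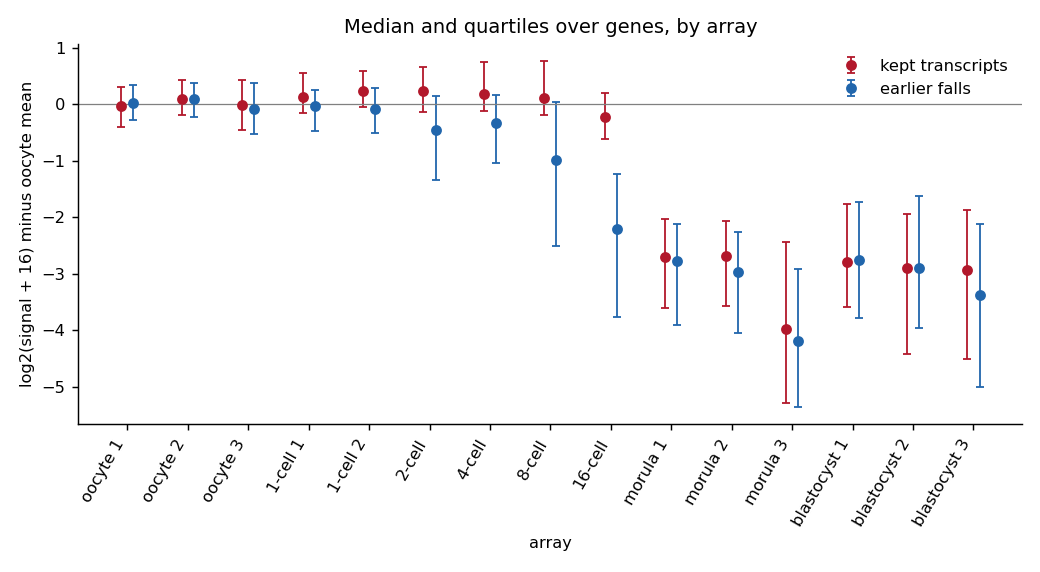
Median and quartiles, over genes, of log2(signal + 16) minus the oocyte mean on each of the 15 arrays, for the 120 kept transcripts (red) and the 434 earlier falls (blue). The red medians stay between -0.23 and 0.24 from the 1-cell to the 16-cell arrays and lie at -2.71, -2.69 and -3.97 on the 3 morula arrays, while the blue median is already at -2.20 on the 16-cell array.

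The size of the morula difference varied widely among the genes. In the morula mean 27 genes were at least 4 (16-fold) below the oocyte mean, 21 had a mean morula signal under 100, and 44 still had one over 500. The median oocyte signal was 2642 and the median morula signal 317. Every morula array was below every oocyte array for 116 of the 120 genes, which the choice of genes favours, against 16.5% of all named genes. The exceptions were GPAT3, KCTD9, ARRDC2 and SSX2IP. Morula 3 was the lowest morula array for 83 genes and the highest for 26, and 65 genes were at least 2 below the oocyte mean on each of the 3 morula arrays taken singly.

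**Figure D2:**
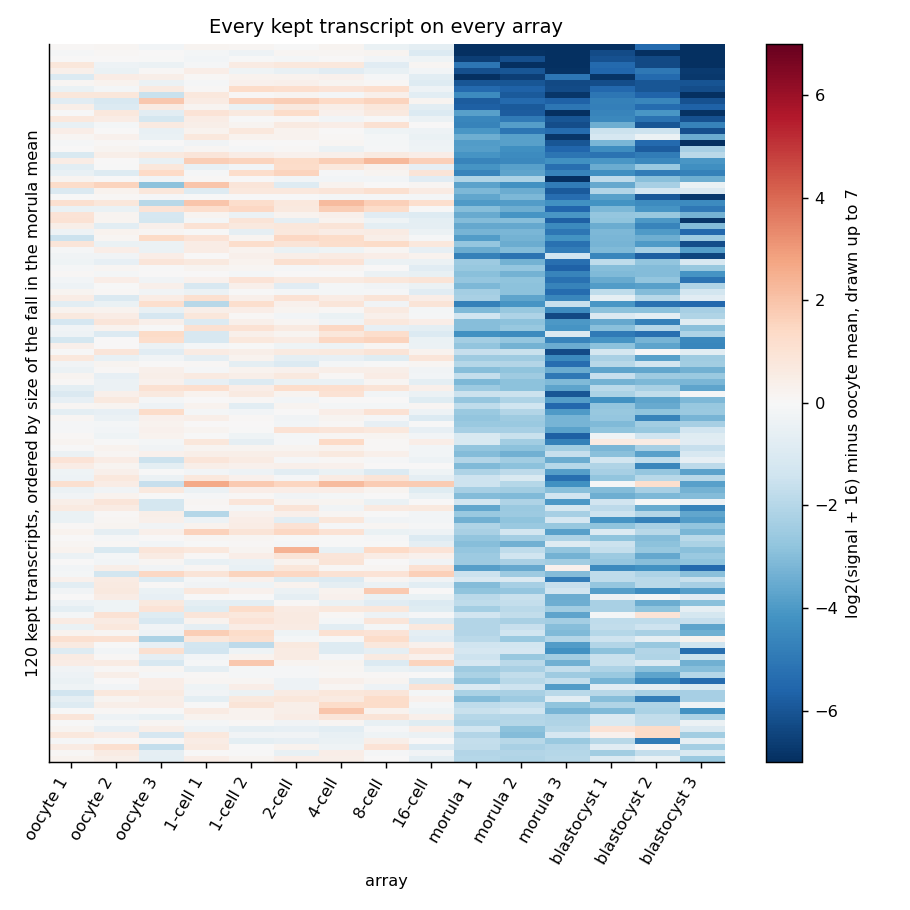
Log2(signal + 16) minus the oocyte mean (colour, drawn up to 7 in each direction) for each of the 120 kept transcripts (rows, largest morula fall at the top) on each of the 15 arrays (columns). The columns from oocyte 1 to 16-cell are pale, the morula and blastocyst columns are blue, and morula 3 is darker than morula 1 and 2 in most rows.

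The arrays of 1-cell embryos and blastocysts, which no limit of the rule used, were compared to ask whether the genes also differed between these stages. All tested probe sets were fitted together with limma over the arrays of all stages. The differences rest on 1-cell and blastocyst arrays only, but their errors also draw on the oocyte and morula arrays that chose the genes. This fit had 7 residual degrees of freedom, against 3 with the 1-cell and blastocyst stages fitted alone. The adjusted p and the counts of falls are therefore not fully independent of the rule. Of the 120 genes, 80 (66.7%) fell from the 1-cell embryo to the blastocyst, none rose and 40 did not pass at an adjusted p under 0.05. Counts of falls within the gene lists below stand beside that 66.7%. Among all 9155 named genes 8.36% fell and 12.7% rose, and among all 24016 probe sets 7.4% and 8.91%. The median log2 difference was -3.01 for the 120 genes, -2.85 for the earlier falls, of which 251 of 434 fell, and 0.04 for all named genes. Both 1-cell arrays were above all 3 blastocyst arrays for 110 of the 120 genes, against 25% of all named genes, and the difference was below 0 for 118. At an unadjusted limma p under 0.05, 99 were lower in blastocysts and none was higher, and 1406 of the 9155 named genes were lower. None of the 120 had every blastocyst array above both 1-cell arrays, against 2631 of the 9155 named genes.

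The count rested on both 1-cell arrays: without 1-cell 1 it was 53 and without 1-cell 2 it was 49, with the remaining 1-cell array assumed to vary like the other groups. The median difference moved little, at -3.13 and -2.98. The GAPDH control, which has probe sets along the transcript, gave a middle signal that was 0.257 and 0.122 of the 3' signal in 1-cell embryos and 0.544, 0.643 and 0.339 of it in blastocysts, a measure of RNA length. Its part in these differences was not tested. Among arrays with spike-in signal (1-cell 2 and blastocyst 3) the median difference of the genes was -3.04, and among those without (1-cell 1, blastocyst 1 and 2) it was -2.96.

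**Figure D3:**
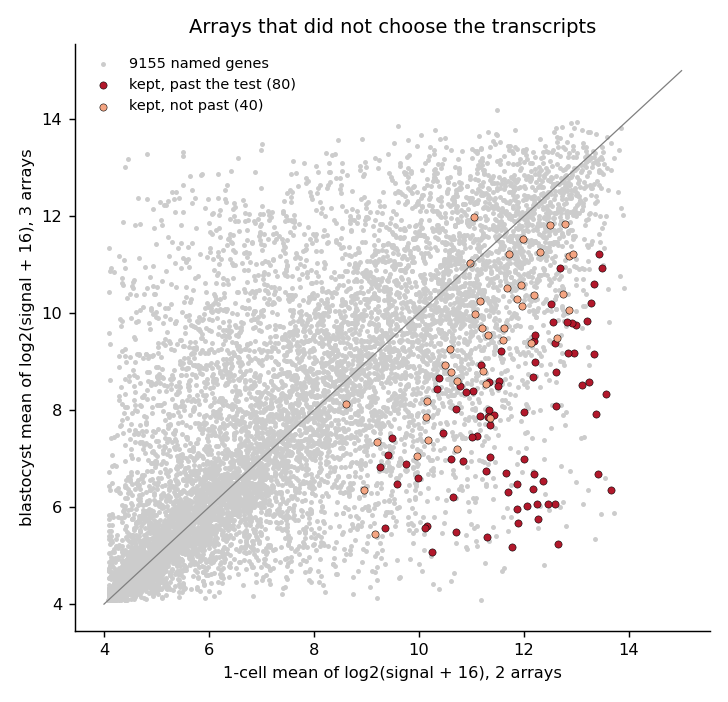
Mean log2(signal + 16) of the 2 1-cell arrays (x) and the 3 blastocyst arrays (y) for 9155 named genes (grey) and the 120 kept transcripts, dark red where the fall passed the limma test (80) and light where it did not (40). The line marks equal levels, and 118 of the 120 kept transcripts lie below it.

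Of 17 measured genes of a list of maternal and oocyte genes, 14 had an oocyte mean of at least 9 and all 14 were at least 2 lower in the morula, but 12 of these were earlier falls and only MOS and ARMC2 met the limit at every cleavage array. That is 14.3% of the list genes with a lower morula, beside 120 of 554 (21.7%) over all named genes. The list, with ARMC2 on it, was drawn up with earlier results of these data known, which may favour its count of genes with a lower morula.

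MOS is the kinase that holds the mature egg in meiosis by activating MAP kinase. MOS had signals of 2825, 7851 and 7426 in the oocyte arrays, 5838 and 6499 in the 1-cell arrays, 6489, 6811, 5179 and 3219.6 in the 2-cell, 4-cell, 8-cell and 16-cell arrays, 23.8, 41.4 and 151 in the morula arrays and 31.0, 109 and 35.7 in the blastocyst arrays. Every array up to the 16-cell stage was at or above 2825, and every later array was at or below 151. The 16-cell signal lay inside the oocyte range only through the lowest oocyte array, at 2825. It was well below the other oocyte arrays, at 7851 and 7426. MOS was not among the genes that met the rule in every setting that left out oocyte or morula arrays. The log2 difference from the 1-cell embryo to the blastocyst was -6.52 (SE 0.72, adjusted p = 3.38e-04), a 92.0-fold fall.

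ARMC2, known from the assembly of the sperm tail, had the deepest fall of the 120 in the tested comparison. ARMC2 had signals of 7186, 7954 and 7704 in the oocyte arrays, 6998 and 5837 in the 1-cell arrays, 8388, 8211, 8625 and 3963 in the 2-cell, 4-cell, 8-cell and 16-cell arrays, 10.3, 46.3 and 33.7 in the morula arrays and 83.2, 11.4 and 4.15 in the blastocyst arrays. The 16-cell array was below the oocyte arrays and still far above every morula and blastocyst array. A second, dimmer ARMC2 probe set did not meet the rule. Its mean signal was 201 in oocytes and 9.6 in morulae, its 16-cell signal was 14.9, and its lowest cleavage array lay 2.72 below its oocyte mean. The log2 difference from the 1-cell embryo to the blastocyst was -7.40 (SE 0.65, adjusted p = 1.19e-04). LOC513055, which the annotation gives only by a locus number, followed the same course, with signals of 12073, 12439 and 10065 in the oocyte arrays, 7127 in the 16-cell array and 25, 21.3 and 62.9 in the morula arrays. Its log2 difference from the 1-cell embryo to the blastocyst was -7.30 (SE 0.78, adjusted p = 2.84e-04).

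**Figure D4:**
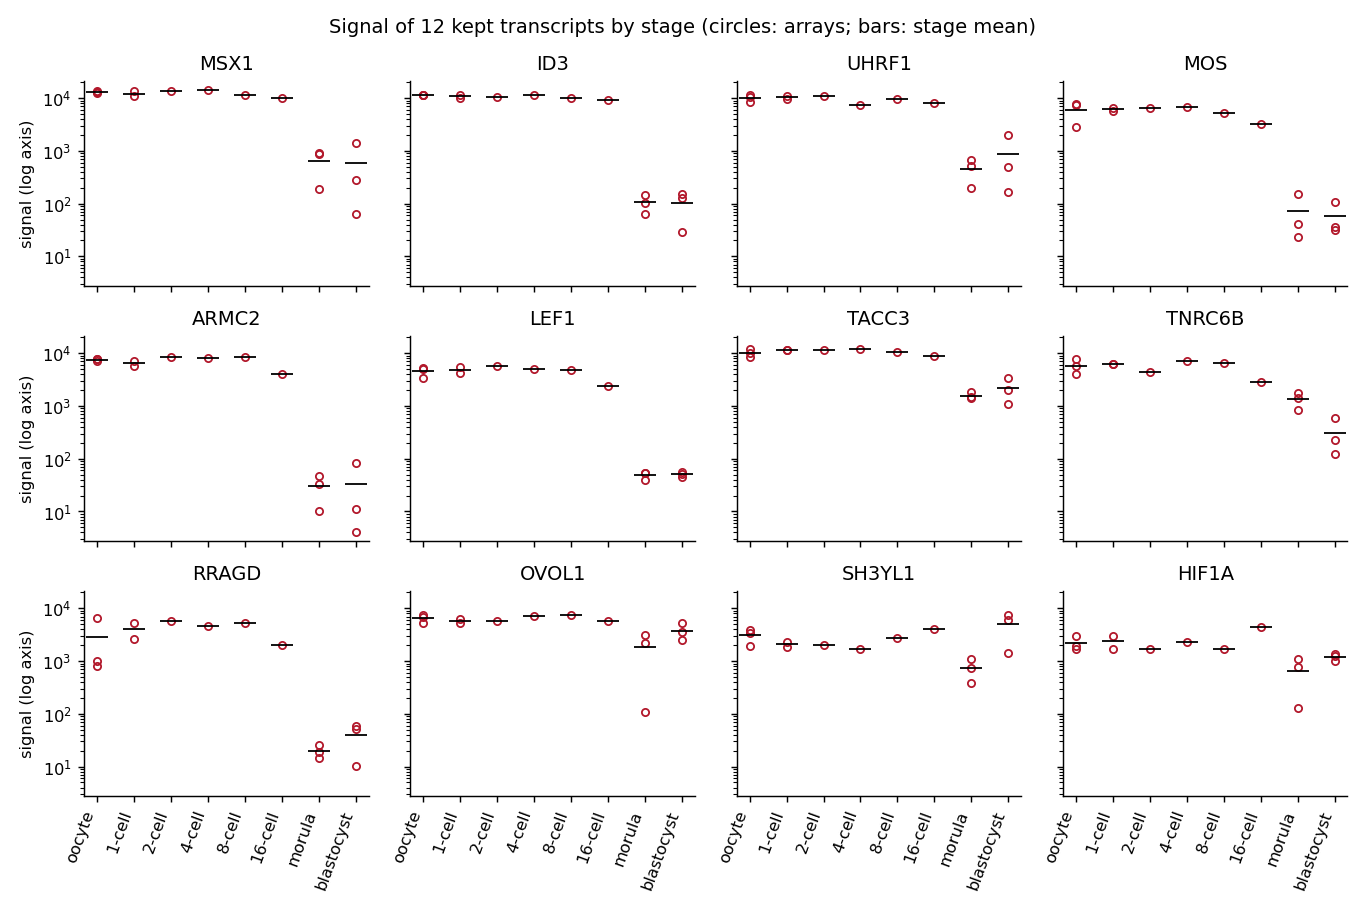
Signal (log axis) of 12 kept transcripts on every array, grouped by stage, with a bar at the stage mean. MSX1, ID3, UHRF1, MOS, ARMC2, LEF1, TACC3, TNRC6B and RRAGD are lower in every blastocyst array than in either 1-cell array, while OVOL1, SH3YL1 and HIF1A have blastocyst means within 2-fold of the oocyte mean.

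Among genes of DNA methylation and chromatin, 9 of 142 measured genes were at least 2 lower in the morula. Of these, 2, UHRF1 and PHF13, met the limit at every cleavage array (22.2%, beside 21.7% over all named genes). UHRF1 brings the maintenance DNA methyltransferase to newly copied DNA. UHRF1 had signals of 10453, 11636 and 8449 in the oocyte arrays, 11020.5 and 9695 in the 1-cell arrays, 10879.8, 7575, 9515 and 8261 in the 2-cell, 4-cell, 8-cell and 16-cell arrays, 671, 508 and 199 in the morula arrays and 488, 163 and 2025 in the blastocyst arrays. The arrays up to the 16-cell stage were all at or above 7575, the morula arrays were all at or below 671, and blastocyst 3 stood above every morula array. UHRF1 fell from the 1-cell embryo to the blastocyst by 4.19 on the log2 scale (SE 0.85, adjusted p = 0.00855). Its call was lost without 1-cell 1 (0.0587), without 1-cell 2 (0.0581) and with those 2 stages fitted alone (0.0541), numbers in brackets here and below being adjusted p. A second UHRF1 probe set met the same rule, with a mean oocyte signal of 7782, a 16-cell signal of 4347 and a mean morula signal of 192. PHF13, a reader of methylated histone H3, had signals of 3416 and 4574 in the 1-cell arrays and 1073, 1009 and 1266 in the blastocyst arrays, and its difference of -1.82 (SE 1.00, adjusted p = 0.268) did not pass.

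Transcription factors gave 8 of the 120 genes (34.8% of the 23 with a lower morula, of 344 measured, beside 21.7% over all named genes), and 7 of the 8 fell from the 1-cell embryo to the blastocyst. ID3, which binds basic helix-loop-helix factors and keeps them off DNA, had one of the highest signals. ID3 had signals of 11676, 11573 and 11292 in the oocyte arrays, 10151 and 11472 in the 1-cell arrays, 10484, 11574, 9903 and 9399 in the 2-cell, 4-cell, 8-cell and 16-cell arrays, 104, 148 and 64.3 in the morula arrays and 154, 127 and 29.0 in the blastocyst arrays. No array up to the 16-cell stage was below 9399 and no later array was above 154, and the difference from 1-cell to blastocyst was -6.71 (SE 0.56, adjusted p = 8.91e-05). LEF1 is the DNA-binding partner of beta-catenin in Wnt signalling. LEF1 had signals of 4933, 5295 and 3403 in the oocyte arrays, 4252 and 5499 in the 1-cell arrays, 5776, 5116, 4773 and 2402 in the 2-cell, 4-cell, 8-cell and 16-cell arrays, 53.6, 53.3 and 40.0 in the morula arrays and 45.6, 55.0 and 51.7 in the blastocyst arrays. The 16-cell signal was lower than the 8-cell signal and below the oocyte arrays, and the 6 morula and blastocyst arrays lay between 40.0 and 55.0. The fall from 1-cell to blastocyst was 72.8-fold (log2 difference -6.19 (SE 0.37, adjusted p = 3.07e-05)).

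Of the other transcription factors on the list, 5 also fell. TBPL1, a relative of the TATA-binding protein used in germ cells, had signals of 7534 and 8675 in the 1-cell arrays and 730.5, 883 and 954 in the blastocyst arrays (log2 difference -3.22 (SE 0.49, adjusted p = 0.00192)). MXI1, which competes with MYC for its partner MAX, had signals of 2195 and 1488 in the 1-cell arrays and 241, 129 and 35.8 in the blastocyst arrays (log2 difference -3.87 (SE 0.74, adjusted p = 0.0063)). ZBTB43 and ZBTB5, zinc finger proteins of the BTB family, differed by -5.38 (SE 0.95, adjusted p = 0.00402) and -3.66 (SE 0.52, adjusted p = 0.00128). All blastocyst values of these 4 genes were below both 1-cell values. SOX4, a factor of the SRY-box family, had 1-cell signals that were far apart, 365 and 3334, against 73.3, 23.2 and 17.3 in blastocysts (log2 difference -4.53 (SE 1.13, adjusted p = 0.022)). The MXI1 call was lost without 1-cell 1 (0.0545), and the SOX4 call without 1-cell 2 (0.221), without blastocyst 2 (0.0621) and without blastocyst 3 (0.0556). ELF1, of the ETS family, is the list member that did not pass: its signals were 3699 and 2595 in the 1-cell arrays and 972, 1685 and 186 in the blastocyst arrays, and 196, 141 and 4.20 in the morula arrays.

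Developmental regulators outside that list included the highest signal of the set. MSX1, a homeobox repressor known from limb and craniofacial development, stood first of the 120 in its oocyte mean. MSX1 had signals of 12318, 13621 and 13186 in the oocyte arrays, 10935 and 13433 in the 1-cell arrays, 13426, 14082, 11629 and 10016 in the 2-cell, 4-cell, 8-cell and 16-cell arrays, 864, 908 and 188 in the morula arrays and 1414, 281 and 62.5 in the blastocyst arrays. The 2-cell and 4-cell signals were within or above the oocyte range, the 8-cell and 16-cell signals were below it, and no morula signal was above 908. MSX1 differed by -5.24 (SE 1.03, adjusted p = 0.00717) from 1-cell to blastocyst, a call lost without 1-cell 2 (0.0614), and its second probe set met the rule too, with mean signals of 6107 in oocytes and 418 in morulae and 4922 at the 16-cell array. HEY1, a repressor switched on by Notch, had signals of 638 and 689.5 in the 1-cell arrays and 131, 105 and 120.3 in the blastocyst arrays (log2 difference -2.34 (SE 0.36, adjusted p = 0.00194)), and all its blastocyst arrays were also below all its morula arrays. DKK3, of the Dickkopf family of secreted proteins, fell 56.6-fold, from 6813 and 4058 in the 1-cell arrays to 91.8, 139 and 32.5 in the blastocyst arrays (log2 difference -5.82 (SE 0.57, adjusted p = 1.92e-04)). OVOL1, a zinc finger repressor of epithelial cells, did not pass: its signals were 6296 and 5318 in the 1-cell arrays and 5194, 2495 and 3623 in the blastocyst arrays.

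Of 81 measured genes of mRNA decay, poly(A) tails and storage, 6 were at least 2 lower in the morula and 2 of these were among the 120. Of 166 measured genes of splicing and RNA processing, 9 were lower and 2 were among the 120. These shares, 33.3% and 22.2%, stand beside 21.7% over all named genes with a lower morula. All 4 fell from 1-cell to blastocyst. TNRC6B links Argonaute and its microRNA to the deadenylases that shorten poly(A) tails. TNRC6B had signals of 4043, 5784 and 7749.5 in the oocyte arrays, 6206 and 6211 in the 1-cell arrays, 4479, 7199.9, 6553 and 2834 in the 2-cell, 4-cell, 8-cell and 16-cell arrays, 828, 1439 and 1752 in the morula arrays and 587, 232 and 120.3 in the blastocyst arrays. The 16-cell signal was the lowest of the arrays before the morula, just inside the 2-fold limit, and every blastocyst array was below every morula array. The difference from 1-cell to blastocyst was -4.51 (SE 0.60, adjusted p = 8.92e-04).

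PAPOLG, a nuclear poly(A) polymerase, had signals of 7784 and 7927 in the 1-cell arrays and 386, 559 and 840.2 in the blastocyst arrays (log2 difference -3.76 (SE 0.56, adjusted p = 0.00161)). RBM38, an RNA-binding protein that acts on mRNA stability, had signals of 10623 and 10596 in the 1-cell arrays and 769, 163 and 84.6 in the blastocyst arrays (log2 difference -5.46 (SE 0.83, adjusted p = 0.00183)). For both genes every blastocyst array was far below both 1-cell arrays. PRPF18, a factor of the second step of splicing, had signals of 3272 and 2764 in the 1-cell arrays and 385, 439.9 and 1118 in the blastocyst arrays (log2 difference -2.35 (SE 0.57, adjusted p = 0.02)), and its call was lost without 1-cell 1 (0.114), without 1-cell 2 (0.0962), without blastocyst 1 (0.0654), without blastocyst 2 (0.0601) and with those 2 stages fitted alone (0.0528). RAMAC, the activating subunit of the enzyme that methylates the mRNA cap, is outside the lists; its signals were 4869.6 and 6972 in the 1-cell arrays and 1643, 987 and 932 in the blastocyst arrays (log2 difference -2.33 (SE 0.38, adjusted p = 0.00251)).

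The mitotic and meiotic cell cycle list held 6 of the 120 genes, out of 185 measured and 11 that were at least 2 lower in the morula (54.5%, beside 21.7% over all named genes). SMCO4, a small membrane protein with no known part in the cell cycle, entered the list through the first letters of its symbol only. KIF3A and KIF3C also entered by the first letters of their symbols, and are counted further below with intraflagellar transport. The 54.5% is therefore not a share of cell cycle genes alone. Of the 6, 5 fell from 1-cell to blastocyst. The exception was CDK7, the kinase that activates other cyclin-dependent kinases and phosphorylates RNA polymerase II, with signals of 1688 and 2697 in the 1-cell arrays and 588, 1454 and 1172 in the blastocyst arrays. CDK2AP2, a binding partner of CDK2, had signals of 4932 and 4409.6 in the 1-cell arrays and 754, 349 and 1135 in the blastocyst arrays (log2 difference -2.77 (SE 0.50, adjusted p = 0.00434)). CDCA7L differed by -3.44 (SE 0.70, adjusted p = 0.00828), a call lost without 1-cell 1 (0.0723). SMCO4 differed by -2.21 (SE 0.65, adjusted p = 0.045), a call lost without 1-cell 1 (0.161), without 1-cell 2 (0.2), without blastocyst 2 (0.126), without blastocyst 3 (0.085), after quantile normalization (0.0516) and with a constant prior variance (0.0538).

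TACC3, which stabilises microtubules of the spindle, was among the 10 highest signals. TACC3 had signals of 10016, 11926 and 8613 in the oocyte arrays, 11392 and 11572 in the 1-cell arrays, 11670.4, 11961, 10563 and 8705 in the 2-cell, 4-cell, 8-cell and 16-cell arrays, 1464, 1388 and 1867 in the morula arrays and 1085, 2025 and 3346 in the blastocyst arrays. All arrays up to the 16-cell stage lay between 8613 and 11961, and all later arrays between 1085 and 3346. The difference from 1-cell to blastocyst was -2.55 (SE 0.42, adjusted p = 0.00277). The motor subunits KIF3A and KIF3C of kinesin-2 carry cargo along microtubules. KIF3A had signals of 2622 and 3206 in the 1-cell arrays and 299, 433 and 315 in the blastocyst arrays (log2 difference -3.02 (SE 0.37, adjusted p = 5.96e-04)). KIF3C had signals of 11242 and 9554 in the 1-cell arrays and 2348, 1289 and 1208 in the blastocyst arrays (log2 difference -2.74 (SE 0.81, adjusted p = 0.0453)), a call lost without 1-cell 1 (0.189), without 1-cell 2 (0.172), without blastocyst 1 (0.0631), without blastocyst 2 (0.111), without blastocyst 3 (0.0991), with a pseudocount of 1 (0.0511), with a constant prior variance (0.0543) and with the replicate number as a block (0.0568). MPHOSPH9, a centriole protein, differed by -3.07 (SE 0.75, adjusted p = 0.0205), a call lost without 1-cell 1 (0.105), without 1-cell 2 (0.112), without blastocyst 1 (0.0564) and without blastocyst 2 (0.0565).

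Of 255 measured genes of ubiquitin conjugation and removal, 24 were at least 2 lower in the morula, and 9 of these (37.5%, beside 21.7% over all named genes with a lower morula) were among the 120. They are DCAF12, USP28, ASB11, FBXL4, TRIM13, KLHL36, FBXL20, FBXW11 and FBXO32, mostly the parts of ubiquitin ligases that choose the substrate, and 5 of the 9 fell from 1-cell to blastocyst. FBXL4, an F-box protein of mitochondria, had the deepest fall. FBXL4 had signals of 2329, 4034 and 1429 in the oocyte arrays, 4589 and 3878 in the 1-cell arrays, 5748, 2937, 3821 and 1214 in the 2-cell, 4-cell, 8-cell and 16-cell arrays, 159, 26.0 and 3.26 in the morula arrays and 80.7, 125 and 4.14 in the blastocyst arrays. The arrays before the morula were all at or above 1214 and the later ones all at or below 159, and the difference from 1-cell to blastocyst was -6.03 (SE 1.01, adjusted p = 0.00304). USP28, a deubiquitinase, had signals of 6029 and 5962 in the 1-cell arrays and 761, 640.1 and 1447 in the blastocyst arrays (log2 difference -2.73 (SE 0.39, adjusted p = 0.00128)). ASB11, a substrate receptor with a SOCS box, had signals of 5079 and 4103 in the 1-cell arrays and 389, 693 and 223 in the blastocyst arrays (log2 difference -3.48 (SE 0.62, adjusted p = 0.00427)). In both, no blastocyst array came near a 1-cell array.

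FBXW11, one of the receptors that take beta-catenin for destruction, differed by -3.28 (SE 0.81, adjusted p = 0.0214), a call lost without 1-cell 1 (0.138), without 1-cell 2 (0.0816), without blastocyst 2 (0.0508) and without blastocyst 3 (0.0521). FBXO32, known from muscle wasting, differed by -3.78 (SE 0.91, adjusted p = 0.0188), a call lost without 1-cell 2 (0.18) and without blastocyst 1 (0.0549). The 4 that did not pass were DCAF12, TRIM13, KLHL36 and FBXL20, with log2 differences of -1.80, -1.93, -2.78 and -0.48. FBXL20 was the single gene of the 120 whose 1-cell mean lay more than 1 below its oocyte mean: its signals were 1749, 1132 and 753 in the oocyte arrays, 455 and 309.7 in the 1-cell arrays and 1825, 603, 1937 and 1428 in the 2-cell to 16-cell arrays. Outside the list, SPOP, the substrate adaptor of CUL3 ligases, had signals of 3369 and 4064 in the 1-cell arrays and 153, 71.6 and 31.2 in the blastocyst arrays (log2 difference -5.39 (SE 0.83, adjusted p = 0.00192)).

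**Figure D5:**
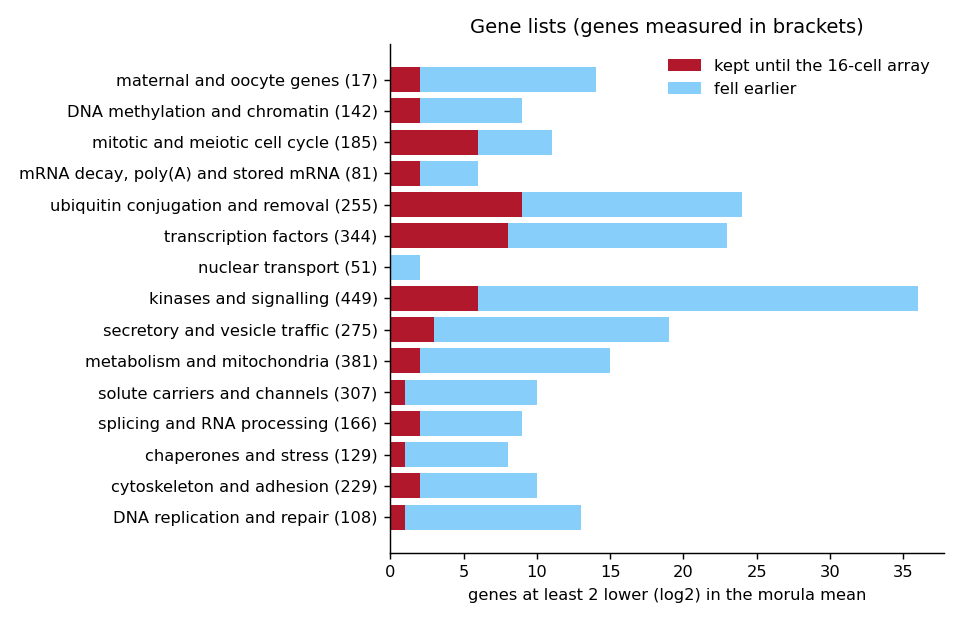
Number of genes in each list whose morula mean was at least 2 (log2) below the oocyte mean, split into kept transcripts (red) and earlier falls (blue), with the number of genes measured in brackets. The ubiquitin list has 9 red of 24, the transcription factor list 8 of 23 and the nuclear transport list 0 of 2.

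Kinases and signalling proteins were measured in the largest number, 449, and 36 of them were at least 2 lower in the morula, and 6 of the 36 (16.7%, beside 21.7% over all named genes with a lower morula) were among the 120: RAB22A, MAPKAPK3, DUSP7, ARHGEF3, PPP1R35 and ARHGAP32. Of these 6, 4 fell from 1-cell to blastocyst. DUSP7, a phosphatase that switches off ERK, was highest at the 8-cell array. DUSP7 had signals of 1444, 2763 and 1259.6 in the oocyte arrays, 2896 and 2106 in the 1-cell arrays, 1282, 2045, 6029 and 1737 in the 2-cell, 4-cell, 8-cell and 16-cell arrays, 234, 247 and 634 in the morula arrays and 104, 70.5 and 102 in the blastocyst arrays. Its blastocyst arrays were below every morula array, and the difference from 1-cell was -4.54 (SE 0.54, adjusted p = 4.91e-04). MAPKAPK3, a kinase activated by p38, had signals of 1222 and 2209 in the 1-cell arrays and 379, 117 and 317 in the blastocyst arrays (log2 difference -2.67 (SE 0.74, adjusted p = 0.0343)), a call lost without 1-cell 1 (0.0835), without 1-cell 2 (0.228), without blastocyst 2 (0.0985), with those 2 stages fitted alone (0.0517) and with the replicate number as a block (0.0529). PPP1R35, a centriole protein that binds protein phosphatase 1, differed by -2.06 (SE 0.56, adjusted p = 0.0329), a call lost without 1-cell 1 (0.141), without 1-cell 2 (0.147), without blastocyst 1 (0.1) and without blastocyst 3 (0.0629). RAB22A, a GTPase of early endosomes, did not pass, and its morula values show how far morula 3 could stand apart: 1640.1, 1547 and 2.51.

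Signalling genes outside that list included some of the deepest falls. RRAGD is one of the Rag GTPases that bring mTORC1 to the lysosome. RRAGD had signals of 1012, 806 and 6600.1 in the oocyte arrays, 2650.0 and 5318 in the 1-cell arrays, 5735, 4644, 5303 and 2021 in the 2-cell, 4-cell, 8-cell and 16-cell arrays, 14.8, 25.5 and 19.1 in the morula arrays and 51.0, 58.2 and 10.3 in the blastocyst arrays. Oocyte 3 stood above the other two oocyte arrays, and no array after the 16-cell stage exceeded 58.2. The difference from 1-cell to blastocyst was -6.21 (SE 0.86, adjusted p = 0.00111). The tyrosine kinases FER and ABL1 differed by -3.65 (SE 0.35, adjusted p = 1.68e-04) and -5.00 (SE 0.83, adjusted p = 0.00285). RIPK1, a kinase of inflammatory and cell death signalling, differed by -3.20 (SE 0.76, adjusted p = 0.0178), a call lost without 1-cell 1 (0.0976), without 1-cell 2 (0.099) and with those 2 stages fitted alone (0.0755). NCK1, an adaptor between receptor kinases and actin, lay nearest the morula limit and did not pass, with signals of 8210.2 and 6677 in the 1-cell arrays and 3022, 4201 and 969 in the blastocyst arrays.

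Surface and secreted proteins outside the lists included GJC1, the gap junction protein connexin 45, which was near background in the late stages. GJC1 had signals of 1536, 1949 and 3264 in the oocyte arrays, 2266 and 5278 in the 1-cell arrays, 4933, 4110.2, 4772 and 1659 in the 2-cell, 4-cell, 8-cell and 16-cell arrays, 32.8, 27.4 and 11.9 in the morula arrays and 31.4, 18.0 and 12.9 in the blastocyst arrays. Its early arrays were all at or above 1536 and its late arrays all at or below 32.8, and the difference from 1-cell to blastocyst was -6.59 (SE 0.53, adjusted p = 7.19e-05). ADAMTS4, a protease of the extracellular matrix, had signals of 3862 and 6215 in the 1-cell arrays and 78.4, 36.1 and 15.9 in the blastocyst arrays (log2 difference -6.51 (SE 0.72, adjusted p = 3.48e-04)). MPIG6B, a receptor known from platelets, had signals of 3943 and 3518 in the 1-cell arrays and 53.3, 35.5 and 52.8 in the blastocyst arrays (log2 difference -5.90 (SE 0.43, adjusted p = 5.36e-05)). In these genes the late signals were close to background, where a fold on this scale is understated. ATP1B1, the beta subunit of the sodium pump that later drives fluid into the blastocyst cavity, was the only one of 10 list genes of carriers and channels with a lower morula to be among the 120, of 307 measured. That share, 10%, stands beside 21.7% over all named genes. ATP1B1 stayed well above background, at 2389, 1021 and 1186 in the morula arrays and 2179.7, 1477 and 2253 in the blastocyst arrays, against 5645 and 7684 in the 1-cell arrays (log2 difference -1.76 (SE 0.46, adjusted p = 0.0276)). Its call was lost without 1-cell 1 (0.0798), without 1-cell 2 (0.19), without blastocyst 1 (0.0558) and without blastocyst 2 (0.0795). ATP1B1 overlaps NME7, also of the 120, in the RefSeq annotation, and the strand measured by each probe set was not examined.

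Secretory and vesicle traffic gave 3 of 19 list genes with a lower morula, of 275 measured (15.8%, beside 21.7% over all named genes). GOLGA7B, a partner of enzymes that add palmitate to proteins, had signals of 9869 and 7889 in the 1-cell arrays and 414, 179 and 564 in the blastocyst arrays (log2 difference -4.60 (SE 0.56, adjusted p = 5.75e-04)), and AP1S2, a clathrin adaptor subunit, had 2114 and 2231 in the 1-cell arrays and 302, 162 and 82.2 in the blastocyst arrays (log2 difference -3.62 (SE 0.53, adjusted p = 0.00144)). The third was RAB22A. Metabolism and mitochondria gave 2 of 15, of 381 measured (13.3%, beside the same 21.7%). ALDH1A1, which makes retinoic acid, had signals of 2298 and 1842 in the 1-cell arrays and 169, 324 and 67.7 in the blastocyst arrays (log2 difference -3.58 (SE 0.68, adjusted p = 0.00612)). INSIG1, the protein that holds the sterol sensor in the endoplasmic reticulum, had blastocyst signals that were far apart, 654, 659.6 and 9.95, and did not pass. CDO1, which oxidises cysteine, is outside the list and was among the 10 highest signals, at 9985 and 8912 in the 1-cell arrays and 1109.7, 1195 and 548 in the blastocyst arrays (log2 difference -3.37 (SE 0.51, adjusted p = 0.00176)).

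The remaining lists held 0 to 2 of the 120 genes. These were 0% to 20% of their genes with a lower morula, beside 21.7% over all named genes. PPIF, the mitochondrial cyclophilin, was 1 of 8 chaperone and stress genes with a lower morula, of 129 measured, and did not pass, with signals of 857 and 2719.7 in the 1-cell arrays and 379, 707 and 800.0 in the blastocyst arrays. Of 10 cytoskeleton and adhesion genes with a lower morula, of 229 measured, CLIP3 fell (log2 difference -5.22 (SE 0.71, adjusted p = 9.99e-04)), and TUBB2B, a beta tubulin, did not pass, with signals of 7999 and 5762 in the 1-cell arrays and 1401, 723 and 2284 in the blastocyst arrays. RAD17, the loader of the checkpoint clamp, was 1 of 13 replication and repair genes, of 108 measured (log2 difference -1.73 (SE 0.50, adjusted p = 0.0405)), and its call was lost without 1-cell 1 (0.162), without 1-cell 2 (0.17), without blastocyst 1 (0.119), without blastocyst 2 (0.0802), with those 2 stages fitted alone (0.0938) and with the replicate number as a block (0.0555). None of the 2 nuclear transport genes with a lower morula, of 51 measured, was among the 120. The lists missed 74 of the 120 genes, of which 46 fell from 1-cell to blastocyst, and NUDT11, a phosphatase of inositol pyrophosphates, had the deepest fall of these after LOC513055, GJC1 and ADAMTS4 (log2 difference -6.39 (SE 0.95, adjusted p = 0.00164)).

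At the 1-cell stage 109 of the 120 genes had a mean within 1 of the oocyte mean. Those more than 1 above it were KCTD9, MPIG6B, HACD4, CCDC3, CA2, SPOP, ARL6, FBXW11, RRAGD and ZBTB5. KCTD9 stood highest above it. KCTD9 had signals of 2881, 1893 and 420.1 in the oocyte arrays, 8309 and 4796 in the 1-cell arrays, 3844, 6224, 4522 and 4614 in the 2-cell, 4-cell, 8-cell and 16-cell arrays, 469, 316 and 55.8 in the morula arrays and 1260.2, 2974 and 79.4 in the blastocyst arrays. Its oocyte arrays ranged from 420.1 to 2881, below both 1-cell arrays, and its morula and blastocyst arrays overlapped. The highest stage mean of the 120 genes was most often that of the 8-cell array (32 genes), then the 2-cell array (26), the 4-cell array (25), the 1-cell arrays (22), the 16-cell array (11) and the oocyte arrays (4). At the 16-cell array MPIG6B, ARL6, KCTD9, MAPKAPK3, HACD4, HIF1A and TRMT61B were among the 13 genes above every oocyte array. HIF1A, the subunit of the hypoxia-inducible factor that is stabilised in low oxygen, had a 16-cell signal of 4362 after 1668 at the 8-cell stage, 1076, 773 and 126 in the morula arrays and 1226, 1372 and 1020.0 in the blastocyst arrays.

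Most of the 120 transcripts were as low in the blastocyst as in the morula. The median blastocyst minus morula difference was 0.19, and 90 of the 120 had a blastocyst mean at least 2 below the oocyte mean. These values share the morula arrays with the choice of the genes and are given without a test. The choice of genes with a low morula mean favours a blastocyst mean above it, among the earlier falls as well. The blastocyst mean was at least 1 above the morula mean for 25 genes (20.8%), against 8.26% of all named genes and 120 of the 434 earlier falls (27.6%). It was at least 1 below for 10 genes, against 8.08% of all named genes. All blastocyst arrays were above all morula arrays for 14 genes (7.25% of named genes) and below them for 5 (9.8% of named genes). The 14 were FDX1, PALS1, POMP, SH3YL1, NME7, SUPT20H, TRIM13, SWAP70, PPIF, CDK7, CARMIL1, TMEM45A, SSX2IP and CA2, and the 5 were TNRC6B, CRTC2, DUSP7, ARRDC2 and HEY1.

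The genes with a higher blastocyst level did not belong to 1 list. SH3YL1, a protein with an SH3 domain that binds phosphoinositides, was lowest in morulae. SH3YL1 had signals of 3362, 1952 and 3901 in the oocyte arrays, 2305 and 1890.1 in the 1-cell arrays, 2011, 1728, 2792 and 4116 in the 2-cell, 4-cell, 8-cell and 16-cell arrays, 1111, 392 and 752 in the morula arrays and 6053, 7469 and 1434 in the blastocyst arrays. Blastocyst 1 and 2 were above every other array, blastocyst 3 was below every oocyte array, and the difference from 1-cell was 0.94 (SE 0.71, adjusted p = 0.433), which did not pass. PALS1, a scaffold of the Crumbs complex that sets apical polarity, had signals of 1616, 1205 and 303 in the morula arrays and 7188 and 6902 in the 1-cell arrays and 3702, 7764 and 1709 in the blastocyst arrays. POMP, which assembles the proteasome, had 1094, 1349 and 356 in the morula arrays and 3009, 3745 and 2289.9 in the blastocyst arrays, near its 3978 and 4071 in the 1-cell arrays. FDX1, a mitochondrial electron carrier for steroid synthesis, had 1126, 1277 and 1172 in the morula arrays and 2364, 1579.9 and 3810.2 in the blastocyst arrays, and SUPT20H, of the SAGA complex, had 741, 781 and 14.3 and 976, 2201 and 1406. In FDX1 the 3 morula arrays were close to each other, whereas in PALS1, POMP and SUPT20H morula 3 was the lowest.

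ARRDC2, of the arrestin family, moved the other way. ARRDC2 had signals of 1088, 1657 and 1066 in the oocyte arrays, 1394 and 860.4 in the 1-cell arrays, 2150.2, 1319, 1369 and 2599 in the 2-cell, 4-cell, 8-cell and 16-cell arrays, 71.5, 90.5 and 1515 in the morula arrays and 42.0, 49.8 and 12.6 in the blastocyst arrays. Morula 3 was far above morula 1 and 2 and inside the oocyte range, so that its morula mean does not describe all 3 arrays. The difference from 1-cell to blastocyst was -4.54 (SE 1.06, adjusted p = 0.0163), a call lost without 1-cell 1 (0.106) and without 1-cell 2 (0.0755). CRTC2, a coactivator of CREB, had 230.2, 342 and 1088 in the morula arrays and 125, 79.5 and 148 in the blastocyst arrays, against 1964 and 3424 in the 1-cell arrays (log2 difference -4.32 (SE 0.63, adjusted p = 0.0015)).

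A second measure came from other probe sets for the same genes, which share the arrays but not the probes. Of the 120 genes 79 had only 1 probe set, and 41 had 50 others between them. Of these 50, 42 had an oocyte mean under 9, with a median mean oocyte signal of 90.6, and gave no uniform picture: 8 were at least 2 lower in the morula mean, 29 were lower by any amount and 13 were higher, with a median difference of -0.35. The second probe set of MPHOSPH9 differed by -3.64, that of TUBB2B, at a mean oocyte signal of 697, differed by -0.14, that of POMP by 0.90 and that of AP1S2 by 2.52. Of the 8 probe sets at 9 or more, for MSX1, UHRF1, RAB22A, ZFYVE1, WDR20, TNRC6B, PLXNA2 and PALS1, all were at least 2 lower in the morula and 7 met the whole rule. The exception was PALS1, whose second probe set was 1.81 below its oocyte mean at its lowest cleavage array.

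Genes on either side of each limit differed little. The lowest oocyte means inside were 9.04 for TRMT61B, 9.29 for IRAG1 and 9.33 for CA2, and the highest outside were 8.90 for VAMP7, 8.86 for CBLB and 8.76 for C23H6orf52. The largest loss at a cleavage array inside the limit was 0.994 for TNRC6B, 0.983 for ARHGAP32 and 0.983 for USP28, and RPL21, DNAJC9 and GMCL1 were just outside it at 1.00. The smallest morula losses inside were 2.02 for NCK1, 2.03 for RAD17 and 2.03 for CETN2, and the largest outside were 1.97 for METTL9, 1.92 for RANBP9 and 1.91 for CHAC1.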

How the data were processed

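Bovine oocytes and embryos of 8 stages were measured on 15 Affymetrix arrays. The authors deposited 1 linear signal intensity for each of 24128 probe sets and array. How probes were summarised and arrays scaled is not given in the sources used here, and median signals per array lay between 39.7 and 61.7. Each deposited intensity was turned into log2(signal + 16), a scale that understates changes of dim genes. The 112 control probe sets were left out, and a platform table gave 13292 of 24016 probe sets 1 gene symbol, 86 several and 10638 none. Genes with several probe sets were represented by that with the highest mean.

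Stage means were fitted over all 15 arrays with limma 3.58.1 (R 4.3.3), with a prior variance following the mean and Benjamini-Hochberg adjustment over 24016 probe sets. Only blastocyst against 1-cell was tested, with 2 and 3 arrays. Signed differences are blastocyst minus 1-cell, and the procedure was tested on simulated data. Genes, lists and tests were chosen with earlier results of these data known. Named genes are the 10 with the highest oocyte mean, up to 4 of each list, the 8 deepest tested falls, the 4 highest blastocyst means, those nearest the limits and those highest or lowest at the 16-cell array. Other names were added for their function or course after their values were seen. Alternatives were other pseudocounts, scalings, filters, limits, variance models, spike-in class, the replicate block and leaving out each replicate. Deviations of same-numbered 1-cell and blastocyst arrays correlated at 0.15 and -0.09, so the number was not taken as a pairing of these stages. Same-numbered oocyte, morula and blastocyst arrays correlated between 0.11 and 0.31, but no test compared those stages. The number of arrays limits the precision.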

Additional observations from a re-analysis of the deposited data

How the results depend on the processing

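The number of genes that met the rule was 120, and it was 119 and 111 with pseudocounts of 1 and 64, 105 after quantile normalization (84 shared with the 120), 126 with arrays centred on their medians and 100 with all probe sets of a gene averaged. A limit of 0.5 at the cleavage arrays gave 63 genes, a limit of 1.5 gave 190, and a morula loss of at least 3 gave 59. Leaving out 1 oocyte or morula array gave 101 to 128 genes, and 91 without oocyte 3 and morula 3 (75 shared). Of the 120 genes, 48 met the rule with each oocyte or morula array left out in turn and with oocyte 3 and morula 3 left out together. No cleavage array was left out. Of the 48, 31 also met it under every pseudocount, scaling and probe set choice. Among the genes given above with the signals of all arrays, MSX1, ID3, UHRF1, TACC3, ARMC2, GJC1 and RRAGD were among the 48. MOS, LEF1, TNRC6B, FBXL4, DUSP7, KCTD9, SH3YL1 and ARRDC2 were not.

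From 1-cell to blastocyst, 80 of the 120 genes were called lower, and 49 to 78 with 1 array left out. The fewest calls came without 1-cell 2 (49) and without 1-cell 1 (53). None was called higher under any of the 14 alternatives tried. Over all probe sets the calls were 1777 lower and 2141 higher, and 843 to 1489 lower and 1000 to 2233 higher with 1 array left out. The median difference of the genes, -3.01, was -2.74 with a pseudocount of 64, -3.13 after quantile normalization and -3.13 to -2.93 with 1 array left out. With the replicate number as a block, 78 of the genes were called lower, the median was -2.92, and 1943 and 2723 probe sets were lower and higher. This pairing by number is not stated for these stages. For the 56 named genes, 717 alternative values left the call as it was, 48 lost it, 19 gained it and none changed direction. The 2-cell to 16-cell stages had 1 array each, so no value there has a replicate. The differences of the tested comparison rest on 5 arrays, and their errors also draw on the oocyte and morula arrays.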

Other observations

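Several of the kept transcripts encode proteins of cilia, centrioles and centrosomes, a group put together after the values were seen and given without a test. It holds 14 of the 120 genes: IFT25, IFT46 and IFT52 of intraflagellar transport, the kinesin-2 motors KIF3A and KIF3C, the BBSome GTPase ARL6, and NME7, CETN2, KIZ, PPP1R35, SSX2IP, TACC3, ARMC2 and MPHOSPH9. The NME7 probe set may not be a measure separate from ATP1B1, as given above. Of these 14, 12 were lower in blastocysts than in 1-cell embryos at an adjusted p under 0.05, the exceptions being CETN2 and SSX2IP, and the median log2 difference was -2.85. Over all 120 genes 66.7% were lower, with a median of -3.01, and over all named genes 8.36%. IFT52 had signals of 2096, 3215 and 2461 in the oocyte arrays, 2050.2 in the 16-cell array and 568, 706 and 162 in the morula arrays. IFT46 had 992, 1147 and 2137, 747 and 256, 232 and 165 in the same arrays. In both genes every morula array was below the 16-cell array.

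Counted by name, 20 genes of intraflagellar transport, the BBSome and kinesin-2 were measured. Of these, 12 had an oocyte mean of at least 9 and 8 were at least 2 lower in the morula mean. Of these 8, 6 met the limit at every cleavage array, beside 21.7% over all named genes with a lower morula. These names were also chosen after the kept transcripts were seen, which favours a high share, so the count is no finding.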
